A study of Caenorhabditis elegans with 2 samples.

Results

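The peaks described here are the UNC-62 binding sites on the X chromosome of Caenorhabditis elegans embryos. They are all peaks on X in the authors' list of peaks that passed an irreproducible discovery rate (IDR) step, which draws on agreement between replicates. There were 644 of them, in 643 distinct intervals, among 2754 peaks in the list. Not every one was found in both replicates: 640 of the 644 had a counterpart in both whole lists. Within the 2754 strongest of both replicates were 457. The 2088 peaks on the 5 autosomes served as background, and the remaining 22 lay on the mitochondrial genome. No measured value other than membership of the list chose the peaks. On X that membership matched a cut on peak signal. The weakest X peak of the list had 59.92, and the strongest of the authors' pooled X peaks outside it had 59.84.

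UNC-62 belongs to the Meis/Prep family of TALE homeodomain proteins, transcription factors that bind DNA together with PBC-class partners and with Hox proteins. It is known for roles in cell fate and cell migration in the embryo. The X chromosome of C. elegans is present as a pair in hermaphrodites and singly in males. In hermaphrodite embryos a dosage compensation complex loads onto X at recruitment elements that carry a GC-rich motif called MEX, and it lowers transcription along the chromosome. X also carries many of the tRNA genes of the genome.

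The material was chromatin from whole mixed-stage embryos, male and female pooled, of strain OP600. These worms carried the unc119(ed3) allele and the transgene wgIs600, an insertion that holds unc-62 fused to the tags TY1, EGFP and FLAG together with unc119. There was 1 group with 2 biological replicates from separate biosamples and no second condition. The antibody is labelled unc-62, and neither the promoter behind the fusion nor the part of it that was bound is given in the sources used here. In such bulk material, binding in more cells and stronger binding in fewer cells cannot be told apart. The labels do not say whether the biosamples came from separately grown cultures. Library depth is unknown, so the lack of a peak does not show that a region was unbound.

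With 1 group there was no test between conditions and no p-value is given. X was set beside the autosomes, and the main results were looked up in each replicate's own 2754 strongest peaks. Some were taken from the IDR list only. Among these were densities by sequence class, 1 Mb bins, gaps and distances to gene starts. So were RNA gene classes other than tRNA and the distances of octamer sites from summits. Intervals are exact binomial 95% intervals, or order-statistic intervals for medians, and they cover counting error only, with nothing of the variation among cultures. Coordinates are 1-based on build ce11. The signal is the value that the authors' peak caller gave each peak, and it ranks peaks within a list only.

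Sequences at the X peaks ranked 1, 3, 5 and 7 on X by signal are shown first because their letters differ from peak to peak. Those ranked 2, 4 and 6 are not printed. Each printed sequence holds at least 1 of the motifs named next, but the peak ranked 2, nearest to pat-9, holds none of them. The printed sequences therefore do not show how often strong peaks hold such a motif. Each line gives a summit with 50 bases to each side, on the plus strand of ce11, with TGACAG (the Meis core site), TGATTGAC, TGATTGAT, TGATTTAT or TGATTAAT (PBC or PBC-Hox sites) or GAGAGA in capitals, on either strand. The intervals are chrX:10766236-10766336 for sma-9, chrX:1093248-1093348 for pigx-1, chrX:16390144-16390244 for let-2 and chrX:13329047-13329147 for sir-2.2.
sma-9: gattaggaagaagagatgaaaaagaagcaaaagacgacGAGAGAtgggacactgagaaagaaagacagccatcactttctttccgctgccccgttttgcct
pigx-1: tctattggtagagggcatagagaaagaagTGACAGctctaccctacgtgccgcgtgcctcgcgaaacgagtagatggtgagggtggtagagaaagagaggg
let-2: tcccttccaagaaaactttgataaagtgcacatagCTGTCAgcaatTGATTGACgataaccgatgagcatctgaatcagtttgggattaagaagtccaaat
sir-2.2: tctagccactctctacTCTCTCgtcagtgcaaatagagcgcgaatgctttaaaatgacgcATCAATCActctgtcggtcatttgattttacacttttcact

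The strongest peak on X lay 2996 bp upstream of sma-9, which encodes a Schnurri-type zinc finger protein of the BMP-like pathway that sets body size. It spanned bases 10766095 to 10766473 and had a signal of 485 in the IDR list, where it ranked 16. Its signal was 343 in replicate 1 and 147 in replicate 2, ranks 11 and 30 of those lists. It held GAGAGA but none of the homeodomain letters. Next came an intergenic peak 2187 bp upstream of pat-9, a zinc finger gene needed for body wall muscle, at 16534537 to 16534863. Its signal was 482 (300 and 182 in the replicates, rank 17 in both), and it held none of the motifs named above.

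A pair of strong peaks lay near the left end of X. One, with a signal of 458 (310 and 148, ranks 14 and 29), was intergenic and 3715 bp downstream of the start of pigx-1, named for a subunit of glycosylphosphatidylinositol anchor synthesis. The other, at 1120435 to 1120761, had a signal of 423 (286 and 144, ranks 20 and 34) and was found 1193 bp upstream of C05D9.7. Both held TGACAG. All 4 peaks described so far ranked 34 or better in each replicate.

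The fifth peak on X was at let-2, the gene of a type IV collagen chain of basement membranes. It covered 16390035 to 16390301, its summit was 854 bp upstream of the start, and its signal was 388 (247 in replicate 1 and 146 in replicate 2, ranks 33 and 32). It carried both TGACAG and TGATTGAC within the printed window. The let-2 gene had 3 summits in all, with signals from 139 to 388. The sixth peak (signal 362, ranks 31 and 83) was at igcm-4, an immunoglobulin-type cell adhesion gene, 25 bp past its start, and the seventh (360, ranks 47 and 33) was in an intron of the sirtuin gene sir-2.2.

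Peaks ranked 8 to 25 on X had signals from 239 to 299. They included peaks 989 bp upstream of ugt-50 (299), a glucuronosyltransferase gene, 5862 bp downstream of the start of C30E1.4 (281), and 511 bp upstream of ftt-2 (261), a 14-3-3 gene. Others lay in an intron of dim-1 (269), whose product is needed for ordered muscle, and in an intron of unc-6 (241), the netrin gene that guides cells and axons. Near nerve and sense genes there were peaks at acr-8 (260), an acetylcholine receptor subunit, and lite-1 (258), a light receptor. Peaks at signalling and chromatin genes were those of nfki-1 (267), an IkappaB-like gene, nck-1 (253), an adaptor, tbc-12 (244), a Rab GTPase-activating gene, and jmjd-3.1 (239), a histone demethylase. The rest were nearest to or in W02H3.3 (281), C04C11.25 (256), tag-278 (255), hst-3.2 (248), a heparan sulfate sulfotransferase gene, K02D3.1 (242), the nuclear receptor gene nhr-35 (240) and unc-115 (240), an actin-binding protein gene.

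Most of these 25 strongest X peaks lay outside gene start windows (1000 bp upstream to 500 bp downstream), as did most X peaks. Such windows held 7 of the 25 and 36.0% of all X peaks. Of the 25, 20 were intergenic, 4 in introns and 1 in the part of an exon before the coding sequence or without any. Intergenic peaks were 66.6% of all X peaks. The summits of the 25 were farther than 1000 bp from the nearest or surrounding gene's start in 18 cases. Homeodomain letters were present at 11, TGACAG at 6, GAGAGA at 9, and 7 held neither kind. Among all X peaks these shares were 20.03%, 13.4%, 24.8% and 58.2%. None of the 25 ranked lower than 214 in replicate 1 or 493 in replicate 2.

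X held more UNC-62 peaks per length than any autosome. Its 644 peaks were 23.4% (21.8 to 25.01) of the list, which also holds 22 mitochondrial peaks, while X is 17.7% of the nuclear genome. That was 36.3 peaks per Mb, against 31.7 on I, 29.8 on III, 27.3 on II, 22.6 on IV and 18.4 on V. Per 100 protein-coding genes X had 23.6 peaks, and the autosomes from 7.73 on V to 16.6 on I. Of the 2754 strongest peaks of replicate 1 alone 665 were on X (24.1%), and of those of replicate 2 alone 638 (23.2%). The log2 ratio of the density on X to that on the densest autosome was 0.20 (0.03 to 0.37) in the IDR list, 0.28 (0.11 to 0.45) in replicate 1 and 0.15 (-0.02 to 0.32) in replicate 2, where the interval holds 0. In the whole lists, which hold weak peaks and background, the X share was 19.8% in replicate 1 and 20.8% in replicate 2. There X was second to an autosome in replicate 1, with 243 peaks per Mb against 254 on the densest autosome.

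By sequence class, X stood above every autosome in introns but not in intergenic sequence. Per Mb of intron there were 33.9 intron summits on X, against 17.9 on V to 26.0 on II. Per Mb of intergenic sequence, X had 54.4 intergenic summits, fewer than I (68.5) and III (65.1) and more than II (48.9), IV (38.0) and V (30.4). X is rich in intergenic sequence, with 2.89 kb per gene against 1.71 kb over the autosomes (1.52 to 2.14 on single ones). Over all non-coding sequence X had 44.8 summits per Mb and I had 42.4, which is within counting error. The order of X and I turned with the length by which the peaks were divided. These divisions were chosen after seeing the data.

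**Figure D1:**
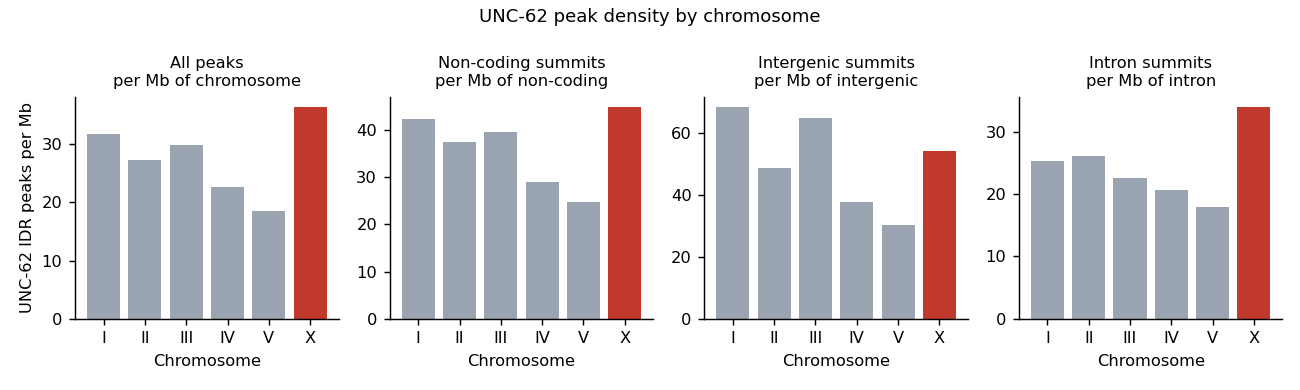
Peaks of the IDR list per Mb on each nuclear chromosome (bars, X in red), divided from left to right by whole chromosome length, non-coding, intergenic and intron length. X is the tallest bar in every panel but the intergenic one (36.3, 44.8 and 33.9), where it stands below I and III (54.4 against 68.5 and 65.1).

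X peaks were of ordinary strength, with a smaller share among the 100 strongest than in the list as a whole. The median signal on X was 94.2 (90.0 to 98.7), and the autosomal median was 94.4 (91.9 to 96.4), with 91.6 to 95.8 on single autosomes. X signals ran from 59.9 to 485, while the strongest autosomal peak reached 973. A signal of 200 or more was found in 51 X peaks (7.92%, 5.95 to 10.3) and in 198 autosomal ones (9.48%, 8.26 to 10.8). The weakest X peak of the list, nearest to cas-1, had a signal of 59.92, and the strongest X peak of the pooled list outside it had 59.84. X and autosomal peaks were alike in width, with 376 bp for 87.6% and 86.9%, and in GC content near the summit, 45.8% for both.

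Among the 100 strongest peaks of the list 11 were on X (11%, 5.62 to 18.8). The ranks count the 22 mitochondrial peaks of the list too. The X share was 24% (19.9 to 28.5) for ranks 101 to 500, 26% (22.2 to 30.1) for ranks 501 to 1000, 23.7% for ranks 1001 to 2000 and 22.5% for ranks 2001 to 2754. Below the list, in the authors' pooled peaks, it was 22.5% for ranks 2755 to 5000 and 19.6% (18.7 to 20.6) for ranks 10001 to 17083. The 100 strongest peaks of each replicate alone held 16 and 14 X peaks. The interval of the top 100 lies below the 23.4% that X holds of the whole list. Those of the 25 strongest (16%, 4.54 to 36.1), the 50 strongest (14%, 5.82 to 26.7) and the 250 strongest (19.6%, 14.9 to 25.07) hold it. For replicate 2 alone the interval (7.87 to 22.4) lies below its own 23.2%, and for replicate 1 alone (9.43 to 24.7) it holds its own 24.1%.

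**Figure D2:**
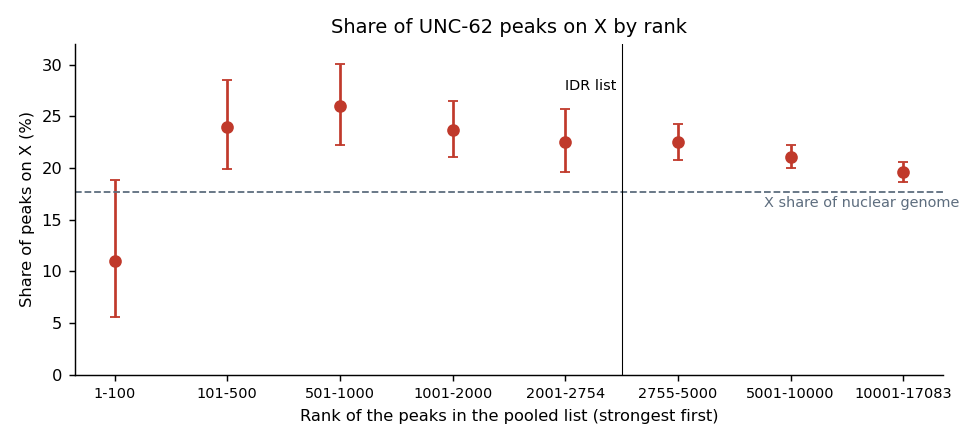
Share of peaks on X (y axis, %, points with exact binomial 95% intervals) by rank in the pooled list (x axis, strongest first), with the X share of the nuclear genome dashed at 17.7%. The 100 strongest peaks stand lowest at 11%, ranks 101 to 2754 lie between 22.5% and 26%, and the weakest ranks fall to 19.6%. The vertical line marks the end of the IDR list.

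The outer parts of X held as many peaks as its middle, unlike those of the autosomes. Cut into 3 equal parts, X held 217, 214 and 213 peaks from left to right, or 36.7, 36.2 and 36.1 per Mb. The middle part held 33.2% (29.6 to 37.02) of X peaks but 46.8% (44.6 to 49.0) of autosomal peaks, and on single autosomes from 39.6% (34.8 to 44.7) on IV to 50.1% on II. The intervals of X and IV overlap, and those of X and each other autosome do not. Outer parts of the autosomes held 20.8 and 19.6 peaks per Mb and their middle parts 35.5, so each of the 3 parts of X was near the autosomal middle. The very ends of X were lower, with 19.2 per Mb in the first 5% of its length and 24.8 in the last. In the strongest peaks of each replicate alone the middle share on X was 33.8% and 32.4%.

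**Figure D3:**
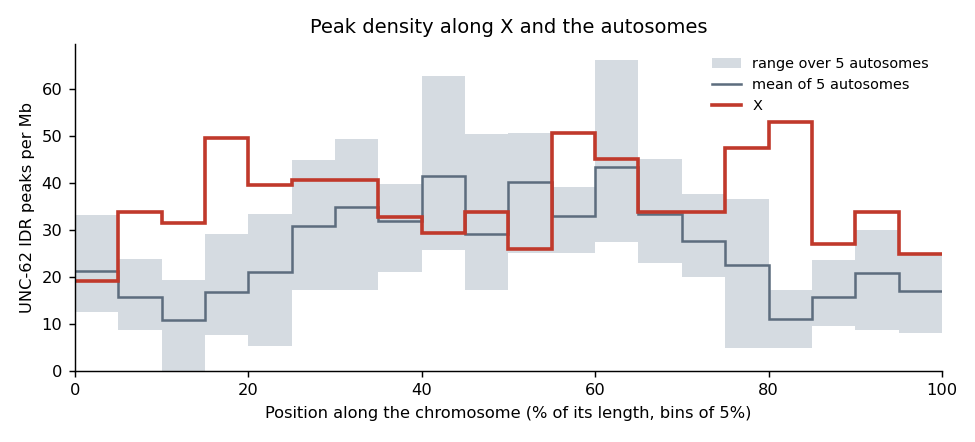
UNC-62 peaks per Mb (y axis) along the chromosomes in 20 bins of 5% of the length (x axis), for X in red, with the mean of the 5 autosomes in dark grey and their range shaded. X ran from 19.2 to 53.1 and stood above every autosome in 9 bins, 8 of them among the 10 bins outside the central 25% to 75%. It stood below every autosome in 0 bins.

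On a finer scale the density on X varied. The 17 full 1 Mb bins held from 20 peaks, in the first, to 55, between 14 and 15 Mb, with a median of 34, and the bin from 10 to 11 Mb held 53. The median distance between neighbouring summits was 15007 bp (13301 to 16832) on X and 17127 bp on the autosomes (14707 to 20465 on single ones). The longest stretch of X without a summit was 229231 bp, from 1627133 to 1856364, and held 41 gene starts. On each autosome the longest such stretch was longer, from 325836 bp on I to 1185098 bp on II. Summits with another within 2000 bp were 23.9% (20.7 to 27.4) of X summits and 29.8% (27.9 to 31.9) of autosomal ones, from 26.8% to 31.4% on single autosomes. Within 1000 bp the shares were 11.2% (8.85 to 13.9) and 12.02%.

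The densest 20 kb of X held 8 summits, 14557567 to 14576118, around the nuclear receptor gene nhr-3 and lron-1, a leucine-rich repeat gene. Their signals ran from 65.0 to 224, and the strongest was in an intron of nhr-3, 1877 bp downstream of its start. Second was a stretch with 7 summits (66.7 to 191) from 14486641 to 14504272, at M163.8, the linker histone gene his-24 and M163.1. The next 5 windows tied at 6 summits each, and 4 of them held summits in or nearest to, among other genes, hbl-1, vab-15, F57G12.1 and let-2. The leftmost of the 5 ran from 4957184 to 4972159 (signals 72.9 to 191), at M03F4.4, the actin gene act-4, M03F4.6 and calu-1, a calumenin gene. Neighbouring summits can lie in a single peak of a replicate: those 203 bp apart in nhr-3 shared ranks 240 and 125.

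By the gene assigned to each summit (the gene whose start window held it, else the gene around it, else the nearest start), the 644 summits fell to 496 genes. A single summit was assigned to 394 of them, 69 had 2, 25 had 3, 5 had 4, 1 had 5 and 2 had 6. Those with 6 were nhr-3 and F57G12.1, and the summits of the latter were all upstream, as far as 16806 bp from its start. The gene with 5 was sax-3, the Robo receptor for the guidance cue Slit, with signals of 193, 133, 98.2, 68.6 and 61.4, all in introns.

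Most X summits were intergenic or in introns, and few were in coding sequence. Intergenic sequence held 429 of them (66.6%, 62.8 to 70.3) and is 44.5% of X, a ratio of 1.50, and on the autosomes it held 65.5% of summits in 35.8% of the sequence, a ratio of 1.83. Introns held 184 X summits (28.6%, 25.1 to 32.2) in 30.6% of the sequence. Coding sequence held 8 (1.24%) in 19.97% of X, among them summits in pks-1 (signal 237), a polyketide synthase gene, M163.1 (191) and mig-13 (114), a guidance gene. Exon parts before the coding sequence or without any held 20 (3.11% in 1.43% of X) and 3′ untranslated regions 3. Median signals were 95.04 for intergenic and 91.4 for intron summits.

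Start windows reached 1000 bp upstream and 500 bp downstream. A summit fell in that of 238 of 2731 protein-coding genes on X, that is 8.71% (7.68 to 9.84). On the autosomes it was 5.78%, from 3.58% on V to 7.77% (6.77 to 8.85) on III and 8.17% (7.19 to 9.23) on I, and the intervals of III and I overlap that of X. Of the 238 genes, 209 also had a summit among the strongest peaks of replicate 1, 194 among those of replicate 2, and 169 in both. Start windows held 232 X peaks (36.0%), 14 of which lay in windows of several genes. The median distance from an X summit to the nearest start was 1490 bp (1267 to 1720), and on the autosomes 1397 bp (1250 to 1775 on single ones). Summits under 500 bp from a start were 175 (27.2%), and those at 5000 bp or more were 77 (11.96%).

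Genes of X that act in sex determination and dosage compensation had weak peaks at their starts, where they had one. Of 6 such genes 2 had a summit in the window, against 8.71% of all X genes, and the strongest peaks of the replicates alone gave 3 in replicate 1 and 0 in replicate 2. The interval of 2 of 6 (4.33 to 77.7) holds that share. At sdc-2, which brings the dosage compensation complex to X in hermaphrodites, the summit was 442 bp upstream (signal 86.5) and ranked 828 in replicate 1 and 10384 in replicate 2. At ceh-39, a ONECUT homeobox gene that counts as an X signal element, it was 192 bp upstream (signal 74.0, ranks 1854 and 4566). The nearest summit to xol-1, the switch gene of sex determination, was 4926 bp upstream (signal 131, ranks 711 and 592). The nuclear receptor gene sex-1 had a summit 860 bp downstream of its start (169) and the RNA-binding gene fox-1 one 7415 bp downstream (98.8), both within the gene. For sdc-1, a zinc finger gene, the nearest was 21836 bp away.

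A list of genes of muscle structure and excitation had a summit at 9 of 18 starts on X (50%, 26.0 to 74.0) against the 8.71% of all X genes, with 9 and 8 in the replicates alone, and at 3 of 7 on the autosomes. This list, like the others, was written with earlier results of these data known, so its share is a description only. Not all its members belong to body wall muscle: myo-2, which had none in the window, encodes a myosin of the pharynx. Proteins of the thin filament and of its attachment were among them. The strongest was 80 bp upstream of unc-115 (signal 240), whose actin-binding product is known mainly from axon outgrowth, with rank 86 in replicate 1 and 493 in replicate 2. Troponin I, encoded by unc-27, had a summit 252 bp upstream (148, ranks 579 and 609), troponin T, encoded by mup-2, one 410 bp upstream (131, ranks 890 and 411), and unc-97, a LIM protein of the attachment sites, one 415 bp upstream (118, ranks 938 and 956). These ranks were within the 2754 strongest in both replicates. The acetylcholine receptor subunit gene lev-8 (107), sup-10 (95.2), lev-9 (84.9), the potassium channel gene unc-58 (82.7) and unc-98 (62.2) completed the count. The summits of lev-9 and unc-58 lay inside tRNA genes. Of the other 9 the troponin I gene tni-1 had its nearest summit 2124 bp upstream, in a peak (110) without a counterpart in replicate 2. For unc-7, twk-18 and unc-1 it was 1356, 1501 and 1818 bp upstream. For unc-9, dyc-1, myo-2, unc-96 and slo-2 it was 3158, 4955, 9806, 19898 and 26337 bp from the start.

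Basement membrane and migration genes had a summit at 3 of 15 starts (20%, 4.33 to 48.1, which holds the 8.71% of all X genes), namely let-2, egl-17 (130, 243 bp downstream, ranks 668 and 905), which encodes a fibroblast growth factor, and slt-1 (70.7, 320 bp upstream), which encodes Slit. The egl-17 summit lay inside a tRNA gene. Several other genes in this list had summits within the gene and none in the window. They were sax-3 with 5, the secreted matrix gene him-4 and the Ryk-type Wnt receptor gene lin-18 with 2 each, and unc-6, mig-13 and the syndecan gene sdn-1 with 1 each. The rest of the list, lon-2, gpn-1, mig-23, egl-15, mig-15 and dgn-1, had no summit in either place. Gene length was not taken into account (sax-3 spans 14020 bp). The share of all X genes with a summit in the body was not computed, so these counts are descriptions only. Epidermal genes had 2 of 13 (15.4%, 1.92 to 45.4, which holds it too), the alpha spectrin gene spc-1 (204, 786 bp upstream) and dpy-23 (179, 342 bp upstream), an adaptor subunit of endocytosis.

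Nuclear hormone receptor genes on X had a summit at 6 of 23 starts (26.1%, 10.2 to 48.4), against the 8.71% of all X genes. Those on the autosomes had one at 12 of 246, against the 5.78% of all autosomal genes. The X genes are named here. They were nhr-35 (240, 443 bp upstream, ranks 176 and 184), nhr-1 (152), nhr-32 (152), nhr-48 (131), nhr-3 (102) and nhr-255 (80.7). The counts in the replicates alone were 6 and 8, and the nhr-255 summit lay inside a tRNA gene. Of 18 ceh homeobox genes on X 2 had a summit at the start (11.1%, 1.38 to 34.7, which holds the 8.71%), the PBC-class gene ceh-40 (95.2, 28 bp downstream) and ceh-39. On the autosomes it was 3 of 45. Neuronal and mesodermal fate factors had 3 of 32, near the share of all X genes, and these were lin-14 (79.4), ceh-39 and the SMAD gene daf-3 (63.2). The GATA factors of the endoderm had 0 of 4, which allows up to 60.2%.

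Genes of the synapse and of neurons at large had a summit at 5 of 18 starts on X (27.8%, 9.69 to 53.5, against 8.71% of all X genes) and at 1 of 14 on the autosomes. Not all act at the synapse. They were kin-29 (125), a kinase, unc-84 (121), a nuclear envelope protein, syd-2 (117), a liprin of the active zone, unc-18 (90.9), of vesicle release, and syg-2 (84.8), an adhesion protein. Genes of timing and vulval development had 2 of 9 (22.2%, 2.81 to 60.0, which holds the 8.71%), lin-14 and egl-17. Large families had few summits at their starts on X, with intervals that still hold the 8.71% of all X genes. Chemoreceptor genes had 0 of 33 (up to 10.6%), neuropeptide genes 0 of 32 (up to 10.9%), collagens 1 of 27 (col-185, 75.7) and ion channels 1 of 41 (twk-28, 81.3), and the autosomal counts were 12 of 1331, 0 of 70, 3 of 129 and 6 of 106. Of 2 ribosomal protein genes on X, rpl-11.2 had a summit 374 bp upstream (222, ranks 148 and 323). Most lists are small, and their intervals are wide.

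X peaks lay near tRNA genes more often than autosomal peaks did. Within 500 bp of a tRNA gene were 49 X peaks (7.61%, 5.68 to 9.93) and 35 autosomal ones (1.68%, 1.17 to 2.32), and X has 15.6 tRNA genes per Mb against 4.07. Of the tRNA genes themselves 58 of 276 on X (21.0%, 16.4 to 26.3) and 38 of 336 on the autosomes (11.3%, 8.13 to 15.2) had a summit so near. Single autosomes ran from 7.69% to 14.1%, on 57 to 78 tRNA genes each, and some of their wide intervals overlap that of X. In 30 cases the X summit was inside the tRNA gene. Among these were the summits given above for lev-9, unc-58, egl-17 and nhr-255. The col-185 summit lay 16 bp from a tRNA gene, and the summit upstream of xol-1 lay 298 bp from one. The median signal of the 49 peaks was 86.3 (80.7 to 102) and that of the other X peaks 95.2, and 37 of the 49 were within the 2754 strongest in both replicates. The strongest were near WBGene00014275 (208, summit 31 bp outside), WBGene00014478 (170, inside), and WBGene00023050 and WBGene00023051, which share a peak (142). Copies of a tRNA gene can be alike enough that reads are assigned to the wrong one, so single tRNA genes are uncertain.

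Genes annotated only as ncRNA were the largest class near X summits. Within 500 bp of one were 225 X peaks (34.9%, 31.3 to 38.8) and 21.9% (20.2 to 23.8) of autosomal peaks, and X has 142 such genes per Mb against 63.5. Of the genes themselves 323 of 2520 on X (12.8%, 11.5 to 14.2) and 11.9% on the autosomes had a summit so near. The strongest peaks were near T27B1.8 (482), F01G12.11 (388), Y102A11A.14 (362) and C30E1.9 (281), which are the peaks given above for pat-9, let-2, igcm-4 and C30E1.4.

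Named classes of other RNA genes had fewer members with a summit within 500 bp. Among microRNA genes it was 4 of 74 on X and 18 of 187 on the autosomes. The X genes were cel-mir-54, cel-mir-55 and cel-mir-55b, which share a peak (180), and cel-mir-56 (121). Among small nucleolar RNA genes it was 3 of 33 on X (9.09%, 1.92 to 24.3) and 69 of 313 on the autosomes (22.0%, 17.6 to 27.1). The X genes were Y102A11A.16, beside the igcm-4 peak (362), C26G2.11 (140) and Y102A11A.17 (118). Long intergenic RNA genes had 4 of 38 on X (10.5%, 2.94 to 24.8) and 19 of 156 on the autosomes (12.2%), which are near each other. The X genes were linc-78 (222), linc-43 (134), linc-103 (102) and linc-22 (68.0). Strand was ignored, and the linc-78 peak is also that of rpl-11.2.

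The Meis core site was present at X summits in a share within the range of the autosomes. TGACAG, on either strand and within 50 bp of the summit, was present in 86 X peaks (13.4%, 10.8 to 16.2), in 3.42% of windows 500 bp to the sides and in 3.86% of all windows of that width on X. On the autosomes 12.6% of summits held it, from 10.5% to 14.02% on single ones. In X peaks of the stronger and weaker part of the whole list it was present in 15.3% and 11.5%. TGATTGAT was present in 26 X peaks (4.04% against 0.466% in flanks), TGATTTAT in 19 (2.95% against 0.776%), TGATTGAC in 11 (1.71% against 0.311%) and TGATTAAT in 4 (0.621% against 0.543%). Any of these 5 were found in 129 X peaks (20.03%, 17.0 to 23.3) and in 20.4% of autosomal peaks.

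The hexamers GAGAGA and ACGCAG were scarcer under X summits than under autosomal ones. GAGAGA was present in 160 X peaks (24.8%, 21.6 to 28.4) and in 5.36% of flanks, and in 34.1% (32.1 to 36.2) of autosomal peaks. The intervals of V (28.2%, 23.8 to 33.0) and II overlap that of X, those of the other autosomes do not, and the highest share was 37.4% on IV. All windows of that width held GAGAGA in 4.91% of cases on X and 5.24% on the autosomes. ACGCAG was present in 59 X peaks (9.16%, 7.05 to 11.7), in 1.71% of flanks, and in 15.8% (14.3 to 17.4) of autosomal peaks, the lowest being V with 13.0% (9.77 to 16.7). In the strongest peaks of replicate 1 alone GAGAGA was at 24.5% on X and 34.2% on the autosomes, and in those of replicate 2 at 23.5% and 30.2%. For ACGCAG these shares were 10.8% and 16.5% in replicate 1 and 7.21% and 13.4% in replicate 2. Neither GAGAGA nor any homeodomain letters were found in 375 X peaks (58.2%, 54.3 to 62.1) and in 51.1% (48.9 to 53.2) of autosomal ones. The letters TGATAA, to which GATA factors bind, were rarer at X summits than in flanks (7.14% against 9.78%), and 6.23% of autosomal summits held them. An E box, CANNTG, was more frequent at X summits than in flanks (51.2% against 33.4%), and 48.8% of autosomal summits held it.

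The octamer GCGCAGGG, which holds the core letters of the MEX motif of dosage compensation, was found at X summits and at a single autosomal summit. It was present in 11 of 644 X peaks (1.71%, 0.856 to 3.04), in 0.0776% of X flanks and in 0.0388% of all X windows, and in 1 of 2088 autosomal peaks (0.0479%, up to 0.267). The strongest peaks of the replicates alone gave 10 and 7 X peaks. There are 81 such sites on X and 233 on the autosomes, or 4.57 and 2.82 per Mb. Of the X sites 19 (23.5%, 14.8 to 34.2) lay within 200 bp of an IDR summit, and of the autosomal sites 5 (2.15%, 0.700 to 4.94). Within the same distance of any summit of the whole pooled list lay 33 (40.7%) and 22 (9.44%). With at most 1 mismatch allowed, a choice made after seeing the data, the letters were present in 5.75% of X peaks (4.08 to 7.83) and 4.69% of autosomal peaks. The difference between X and the autosomes lay in exact matches. A match is a description of the letters, and binding of the complex there was not measured.

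The 12 sites in these 11 peaks are printed because they share letters beyond the octamer. Each line is read 5′ to 3′ on the strand that holds GCGCAGGG, in capitals, and is named for the gene assigned to the peak.
W02H3.3: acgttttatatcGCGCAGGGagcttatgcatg
nspc-17: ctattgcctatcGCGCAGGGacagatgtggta
Y41G9A.17: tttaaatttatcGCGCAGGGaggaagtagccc
mom-1: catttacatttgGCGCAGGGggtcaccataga
mom-1 (other site): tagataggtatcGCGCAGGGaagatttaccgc
F20B6.9: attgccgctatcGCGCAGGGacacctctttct
xol-1: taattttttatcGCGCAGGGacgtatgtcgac
gtr-1: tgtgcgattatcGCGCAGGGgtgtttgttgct
ins-39: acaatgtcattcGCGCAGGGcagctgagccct
R04E5.9: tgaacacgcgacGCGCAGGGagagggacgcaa
sax-3: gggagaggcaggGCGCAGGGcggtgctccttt
apm-3: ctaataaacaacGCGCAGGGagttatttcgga

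Of the 12 sites 8 were preceded by tc, 7 of those by tatc, and 8 were followed by a. In order of the lines the sites are chrX:11094113-11094144 (minus), chrX:14525888-14525919 (minus), chrX:2997111-2997142 (minus), chrX:6296536-6296567 (plus), chrX:6296564-6296595 (plus), chrX:4209254-4209285 (minus), chrX:8036389-8036420 (minus), chrX:806662-806693 (plus), chrX:1345044-1345075 (plus), chrX:8811093-8811124 (minus), chrX:3456872-3456903 (minus) and chrX:954899-954930 (minus), with the strand in brackets. The strongest of the peaks was 4020 bp downstream of the start of W02H3.3, with a signal of 281 and ranks 91 and 85 in the replicates. Others with signals of 200 or more were at nspc-17 (233, ranks 126 and 313), Y41G9A.17 (209, ranks 350 and 124) and mom-1 (207, ranks 256 and 220), the Porcupine gene of Wnt secretion, in whose intron 2 sites lay in a single peak. The peak upstream of xol-1 also held the octamer, 18 bp from its summit. Weakest were the peaks at sax-3 (68.6, ranks 1801 and 10432) and apm-3 (61.1, ranks 3325 and 2894). Of the 11 peaks 9 were within the 2754 strongest in both replicates, 8 were intergenic, 3 were in introns and 4 were in a start window.

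GGTTCGA, the letters of the internal B box of tRNA promoters, was present in 23 X peaks (3.57%, 2.28 to 5.31), in 0.466% of X flanks and in 1.20% (0.776 to 1.76) of autosomal peaks. Of the 49 X peaks near tRNA genes 19 held it (38.8%, 25.2 to 53.8), and of the other 595 X peaks 4 (0.672%). Without the peaks near tRNA genes the shares on X and the autosomes were 0.672% and 0.731%.

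**Figure D4:**
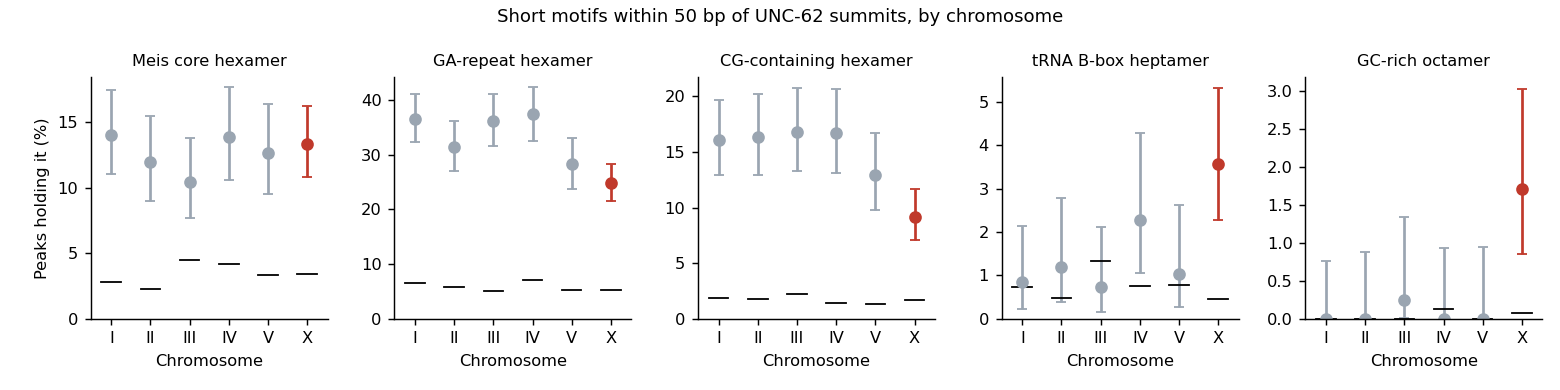
Share of peaks (y axis, %) with a motif within 50 bp of the summit on each chromosome (points with exact binomial 95% intervals, X in red), and in the flanks (black bars), for TGACAG (Meis core), GAGAGA (GA repeat), ACGCAG (CG-containing), GGTTCGA (B box) and GCGCAGGG (GC-rich octamer) from left to right. X lies among the autosomes for TGACAG (13.4%), below all for GAGAGA (24.8%) and ACGCAG (9.16%), and above all for GGTTCGA (3.57%) and GCGCAGGG (1.71%), where its intervals still overlap those of some single autosomes.

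X peaks stood in the replicates as autosomal peaks did. One of the 2754 strongest peaks of replicate 1 overlapped 89.9% (87.3 to 92.1) of X peaks by at least 1 bp, and one of those of replicate 2 overlapped 79.7% (76.3 to 82.7), and for autosomal peaks the shares were 88.9% and 80.7%. The best overlapping peak was within the 2754 strongest of both replicates for 457 X peaks (71.0%, 67.3 to 74.4) and for 71.0% of autosomal peaks. In both whole lists 640 of the 644 had a counterpart. The peak assigned to pgp-5 (75.4) had none in replicate 1, and those assigned to tni-1 (110), gfi-3 (63.7) and sax-3 (61.4) had none in replicate 2. The median log2 ratio of the replicate 1 signal to the replicate 2 signal was 0.82 (0.76 to 0.86) on X and 0.76 to 0.82 on single autosomes, and since signals are not comparable between lists only the likeness of these medians bears on X. Since both replicates went into the IDR list, such overlap is in part a product of how it was made.

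**Figure D5:**
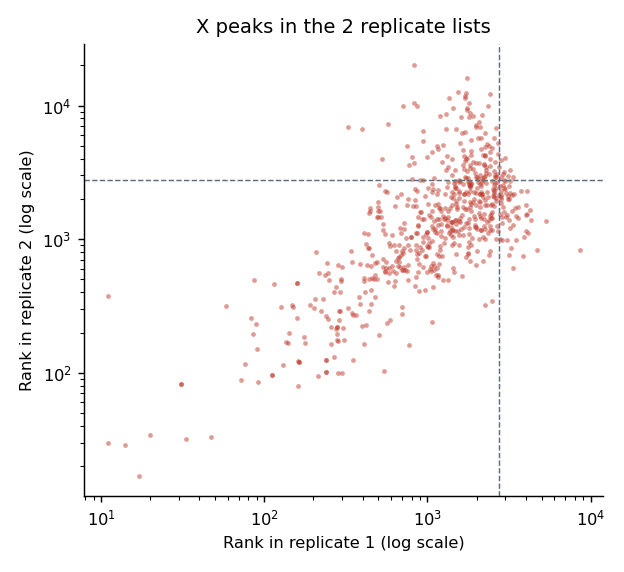
Rank of the 640 X peaks with a counterpart in both replicate lists, in replicate 1 (x axis, log scale) and replicate 2 (y axis, log scale), with 1 point per peak and dashed lines at rank 2754. The strongest peaks lie near the lower left corner, and 457 points lie within both lines. More points pass the replicate 2 line than the replicate 1 line.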

How the data were processed

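Chromatin immunoprecipitation with sequencing gave narrowPeak lists for 2 replicates, their pool and the IDR step, on ce10 and ce11. Per the deposited descriptions, a control served in calling each replicate's peaks, and the pooled and replicate lists together gave the IDR list. Sources used here do not name the aligner, peak caller, IDR threshold or depth. Column 7 is a peak signal as the authors deposited it, and column 9 is the −log10 q value that the authors' caller gave, used only for identification.

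Summits, the gene annotation (Ensembl release 115, protein-coding unless stated) and the RefSeq sequence of the same assembly were joined in Python 3.11.15 with NumPy 2.4.6, SciPy 1.17.1 and Matplotlib 3.10.9. Classes were taken in the order coding, other exon parts (3′ untranslated last), intron, intergenic. The gene start was the outermost annotated one. Motifs on either strand were counted up to 50 bp from each summit. Counting steps were tested on simulated data. No test between conditions was possible.

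Genes named are those of the 25 strongest X peaks, all sex determination genes of the lists, up to 4 of each other list and non-coding class, and those of the 3 densest 20 kb windows. The rule set no order for tied windows, and the leftmost was described in full. Some outside this rule were chosen after their values were seen. They were the further muscle, nuclear receptor and synapse genes with a summit, and list genes without a summit in the window. Others were summits in coding sequence, genes with the most summits or in tied windows, and peaks without a counterpart in a replicate. Genes at the octamer and cas-1 were also among them. One list member, bus-8, was not found by that symbol. The peaks and lists were chosen with earlier results of these data known. Alternatives were each replicate alone, the stronger part of the list, 1 peak per interval, other windows and the ce10 list. Density per class of sequence, GGTTCGA without tRNA peaks and GCGCAGGG with a mismatch were added after seeing the data.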

Additional observations from a re-analysis of the deposited data

How the results depend on the processing

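Of 75 recomputed values for X that answer a comparison, 59 stayed within counting error of the value reported, 15 moved outside it and 1 reversed. All those from a single replicate stayed, but both replicates went into the IDR list. Taking 1 peak per interval left 643 of the 644 X peaks, and the ce10 list is the IDR list on another build. Values under such settings could hardly move, so the count of 59 is no measure of robustness. Of the autosomal values set beside those of X, GAGAGA (30.2%) and ACGCAG (13.4%) fell below the counting error of their 34.1% and 15.8% in replicate 2 alone. Both stayed above X there. The X share of peaks was 23.2% to 24.1% in the replicates alone, X genes with a summit 8.28% to 9.01%, and GAGAGA at X summits 23.5% to 24.5%. With the stronger part of the IDR list, 4.98% of X summits had another within 1000 bp and 4.28% of X genes had a summit at the start (autosomes 2.64%), from fewer peaks, and peaks near tRNA genes were 6.54% on X and 0.771% on the autosomes. Within 2000 bp the share of close summits was 23.9%. With windows of 500 bp upstream to 200 bp downstream and of 2000 bp upstream to 500 bp downstream, X genes with a summit were 6.22% and 11.97% (autosomes 4.14% and 8.40%). With 25 bp and 100 bp to each side of the summit, TGACAG was at 8.54% and 20.3% on X (autosomes 7.18% and 17.5%). GAGAGA was at 12.4% and 40.5% (18.8% and 52.1%) and ACGCAG at 4.81% and 15.8% (8.67% and 25%). With these windows the order of X and the autosomes was kept for all 3. For TGACAG it was also kept in replicate 1 alone (14.4% and 12.4%) and with 1 peak per interval. It turned in replicate 2 alone (11.4% on X, 11.9% on the autosomes) and in the stronger part of the list (15.3% and 15.5%). GGTTCGA was at 5.59% on X with 100 bp and at 0.672% without peaks near tRNA genes, and GCGCAGGG at 5.75% with 1 mismatch. The log2 ratio of the density on X to that of the densest autosome was 0.20 per Mb of chromosome, 0.28 and 0.15 in the replicates alone (the interval of the latter holds 0), 0.38 per Mb of intron and -0.33 per Mb of intergenic sequence. No paired analysis was possible because there is 1 group only. Depth is unknown and limits the weaker peaks to an unknown degree.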
